A study of Rattus norvegicus with 6 samples.

Results

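The expression of 10 adipocyte genes was examined in tissue from rat calvarial defects, that is, surgical gaps in the bone of the skull vault. The genes were taken by name from the deposited table of 34045 genes and cover hormones and secreted proteins (Adipoq, Lep, Retn, Cfd), lipid droplet proteins (Plin1, Cidec), enzymes of fat breakdown and glycerol supply (Lipe, Pck1) and transcription factors of fat cell formation (Pparg, Cebpa). All 10 names matched 1 row each. The defects were made in wild-type male Sprague-Dawley rats and received either a hydrogel named CGG (3 libraries) or a hydrogel named CGG-Cit (3 libraries). The labels spell out neither name and give no age, and the series title mentions a tricarboxylic acid cycle metabolite built into hydrogels. Tissue was taken at week 4, and no sham or empty defect was analysed here. No label ties the libraries of a group to separate rats. Each p-value sets the difference between the groups against the scatter of these libraries, and that scatter may be technical.

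Adipocytes store triglyceride in a single large droplet and release it as fatty acids and glycerol when energy is short. Their formation from stromal precursors is driven by PPARγ and C/EBPα, which switch on each other's genes and then the genes of droplets and hormones. In the skull and other bones they lie in the marrow and in the soft tissue around the bone, and marrow adipocytes and osteoblasts share stromal precursors.

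In the CGG libraries Adipoq, Lep, Plin1, Cidec and Pck1 lay under 3 FPKM each, and in CGG-Cit they differed between libraries of the same group. These 5 genes were more than 2 times higher in CGG-Cit 2 and CGG-Cit 3 than in any CGG library, whereas CGG-Cit 1 stood at or under the CGG level. Pparg alone passed the test described below. It rose from 7.55 ± 1.25 FPKM in CGG to 14.5 ± 1.205 in CGG-Cit (SD, n = 3), and was high in all 3 CGG-Cit libraries. Cebpa was also higher in every CGG-Cit library than in any CGG library, without passing. FPKM are fragments counted on a gene, divided by its length in kilobases and by the size of the library. The libraries held 14744207 to 16224920 fragments on genes, as recovered from the FPKM. The library size used as divisor was 15223734 to 16780646, above the recovered total in some libraries and below it in others.

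Expression was tested with limma on log2(FPKM + 1) over the 15965 genes whose mean reached 0.5 FPKM, and a gene was called at a Benjamini-Hochberg adjusted p under 0.05. All 10 genes were tested. Of them 1 was called higher and 0 lower, and 3 had an unadjusted p under 0.05. The background was 7.75% of all genes called higher and 9.78% called lower. After rescaling to TPM (each library brought to the same sum), which moved the median log2 fold change of all genes from 0.00 to 0.15, 2202 genes were called higher and 952 lower, against 1237 and 1561 before. With voom on the recovered reads the members called were also 1 higher and 0 lower. Every CGG-Cit library lay above every CGG library for 2 of the 10 genes, Pparg and Cebpa, where 19.6% of all genes did so and 22.1% lay below. The median log2 fold change (CGG-Cit minus CGG) of the 10 was 0.69, beside 0.00 over all genes tested. Of the 10, 9 were above 0, as were 8022 of the 15965 genes tested. CGG-Cit 2 had the highest value of the 6 libraries for 9 genes, and CGG-Cit 1 the lowest for 6. For Lipe, among those 6, CGG-Cit 1 held 293 fragments and CGG 3 held 294. The counts by highest and lowest library were not made over all genes, and genes that vary together repeat the same pattern.

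**Figure D1:**
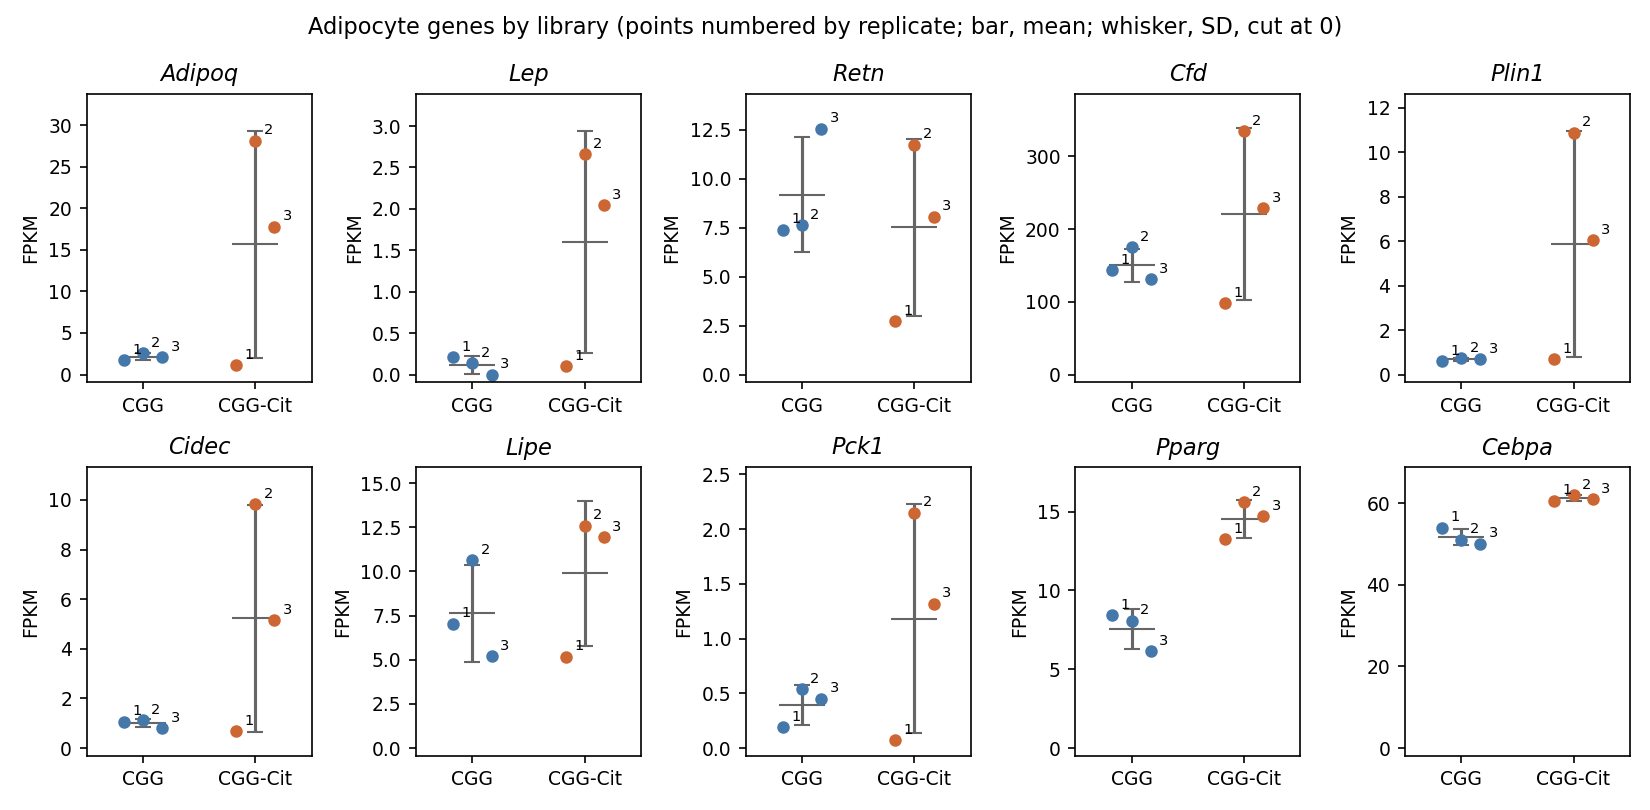
FPKM of the 10 adipocyte genes (vertical axis, linear and different for each panel) in the CGG and CGG-Cit libraries. Points are libraries numbered by replicate, the horizontal bar is the mean and the whisker the SD. CGG-Cit 1 sits among or under the CGG points in all panels but Pparg and Cebpa.

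Adipoq encodes adiponectin, the most abundant hormone of fat cells, which acts on insulin sensitivity (ENSRNOG00000001821, listed at chromosome 11, 81330293 to 81344488). It measured 1.72, 2.57 and 2.13 FPKM in CGG 1, 2 and 3 and 1.09, 28.1 and 17.8 FPKM in CGG-Cit 1, 2 and 3. CGG-Cit 2 and 3 stood 13.1-fold and 8.32-fold above the CGG mean, while CGG-Cit 1, at 0.510 of that mean, was the lowest of all libraries, so the groups overlapped. These values rested on 56, 82 and 66 fragments in CGG and on 34, 885 and 609 in CGG-Cit. The fitted log2 fold change was 1.75 ± 0.920 (SE), with a 95% interval of -0.45 to 3.94 and an adjusted p of 0.225.

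Lep encodes leptin, the hormone that reports fat stores to the brain (ENSRNOG00000045797, listed at chromosome 4, 56337695 to 56351818). It was near the detection limit in CGG, at 0.210, 0.136 and 0 FPKM, and measured 0.0994, 2.66 and 2.05 FPKM in CGG-Cit. In CGG 3 no fragment was counted, which allows up to 0.0599 FPKM at 3 fragments. CGG-Cit 1 held 5 fragments, within the CGG range of 0 to 11, whereas CGG-Cit 2 and 3 held 135 and 113. The log2 fold change was 1.05 ± 0.449 (SE; adjusted p = 0.147), and it was 2.45 with a pseudocount of 0.1 and 3.65 with voom, beside a ratio of group means of 13.9.

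Cfd encodes adipsin, the protease that starts the alternative complement pathway, which fat cells make but not they alone (ENSRNOG00000033564, listed at chromosome 7, 12634216 to 12635943). Which cells of this tissue made it was not tested. It was the most strongly expressed of the 10 genes, at 143, 175 and 131 FPKM in CGG and 98.0, 335 and 229 FPKM in CGG-Cit. CGG-Cit 2 was 3.41 times CGG-Cit 1, more than the 1.47-fold difference between the group means, and the test did not pass (log2 fold change 0.39, adjusted p = 0.543). The annotation overlaps Cfd with Arhgap45 on the same strand, which averaged 51.4 FPKM, so reads shared by these neighbours cannot be assigned.

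Retn, which encodes resistin, was the exception among the secreted proteins (ENSRNOG00000001001, listed at chromosome 12, 2201891 to 2204249). It measured 7.40, 7.60 and 12.5 FPKM in CGG and 2.74, 11.7 and 8.06 FPKM in CGG-Cit. Its highest value was in CGG 3 and its lowest in CGG-Cit 1, and CGG-Cit 2 and 3 lay inside the CGG range. The log2 fold change was -0.39 (adjusted p = 0.573), and its sign turned to 0.11 without CGG-Cit 1.

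In the lipid droplet genes CGG-Cit 2 was again highest, followed by CGG-Cit 3. Plin1 encodes perilipin 1, the coat protein of the adipocyte droplet that controls access of lipases (ENSRNOG00000015086, listed at chromosome 1, 141458181 to 141471010). It was even in CGG, at 0.607, 0.748 and 0.680 FPKM, and measured 0.700, 10.9 and 6.05 FPKM in CGG-Cit. CGG-Cit 1 thus lay inside the narrow CGG range, while CGG-Cit 2 and 3 stood 16.05-fold and 8.92-fold above the CGG mean. The log2 fold change was 1.64 ± 0.661 (SE; adjusted p = 0.132).

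Cidec encodes a protein that fuses small droplets into the large one of white adipocytes (ENSRNOG00000009153, listed at chromosome 4, 145377431 to 145390497). It measured 1.06, 1.14 and 0.806 FPKM in CGG and 0.692, 9.84 and 5.17 FPKM in CGG-Cit. CGG-Cit 1 lay below every CGG library, and CGG-Cit 2 and 3 lay above. The log2 fold change was 1.28 ± 0.628 (SE; adjusted p = 0.198).

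Lipe encodes hormone-sensitive lipase, which cuts diacylglycerol during fat breakdown (ENSRNOG00000020546, listed at chromosome 1, 82248046 to 82266727). It measured 7.04, 10.6 and 5.21 FPKM in CGG and 5.18, 12.6 and 11.9 FPKM in CGG-Cit. CGG-Cit 2 and 3 were again highest, while CGG-Cit 1, at 293 fragments, was level with CGG 3, at 294. CGG-Cit 2 stood only 1.65-fold above the CGG mean (log2 fold change 0.30, adjusted p = 0.592). Pck1 encodes the phosphoenolpyruvate carboxykinase that supplies glycerol for triglyceride in fat cells (ENSRNOG00000028616, listed at chromosome 3, 171213936 to 171219871). It was low in every library, at 0.191, 0.537 and 0.451 FPKM in CGG and 0.0749, 2.15 and 1.32 FPKM in CGG-Cit. Behind the Pck1 values were 8 to 22 fragments in CGG and 3, 87 and 58 in CGG-Cit, and the difference did not pass (log2 fold change 0.52, adjusted p = 0.390). With a pseudocount of 0.1 the log2 fold change of Pck1 was 0.82.

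The transcription factor genes differed from the other 8 genes in that all 3 CGG-Cit libraries were alike. Pparg encodes the nuclear receptor PPARγ, the main switch of fat cell formation, which macrophages also make (ENSRNOG00000008839, listed at chromosome 4, 147274107 to 147399380). It measured 8.44, 8.09 and 6.13 FPKM in CGG and 13.2, 15.6 and 14.7 FPKM in CGG-Cit, with no overlap. Pparg rose 1.92-fold between the group means, by 0.87 ± 0.138 on the log2 scale (SE; 95% interval 0.54 to 1.199; adjusted p = 0.0155). It passed in 16 of 17 alternative fits (adjusted p = 0.00858 to 0.0619) and did not without CGG-Cit 2, where the log2 fold change was 0.82.

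Cebpa encodes C/EBPα, which acts in fat cells and also in granulocyte precursors and macrophages (ENSRNOG00000010918, listed at chromosome 1, 91363492 to 91366164). It measured 54.1, 51.1 and 50.1 FPKM in CGG and 60.7, 62.1 and 61.1 FPKM in CGG-Cit. The groups did not overlap, but the difference of 1.18-fold did not pass the test (log2 fold change 0.24 ± 0.0758, SE; adjusted p = 0.0739). After rescaling to TPM it was 0.41 with an adjusted p of 0.0362.

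**Figure D2:**
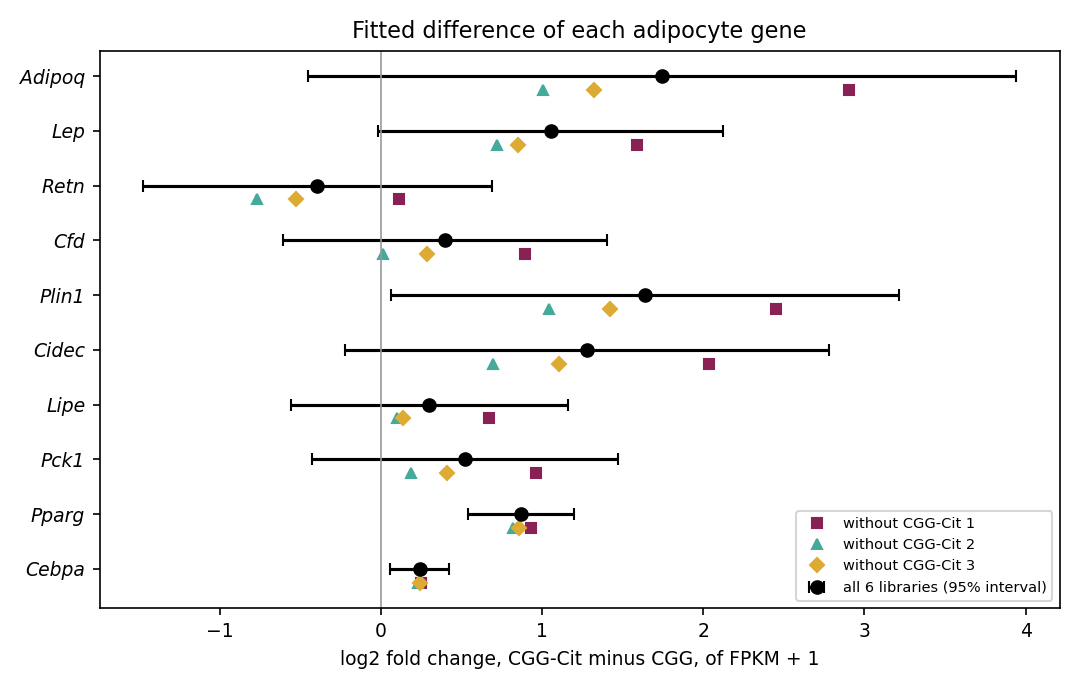
Fitted log2 fold change of FPKM + 1, CGG-Cit minus CGG (horizontal axis), of each adipocyte gene. Black points and bars are the fit of all 6 libraries with its 95% interval, and coloured points are the fits with 1 CGG-Cit library left out. The interval of Adipoq runs from -0.45 to 3.94 and that of Pparg from 0.54 to 1.199, and the points without CGG-Cit 1 lie farthest to the right for every gene.

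These differences depended on which libraries were fitted. Without CGG-Cit 1, 5 of the 10 genes were called higher, against 3.23% of all genes, and these were Adipoq, Lep, Plin1, Cidec and Pparg. The log2 fold change of Adipoq was then 2.91 (adjusted p = 0.0119), that of Plin1 2.45 (0.0160), that of Cidec 2.03 (0.0257) and that of Lep 1.59 (0.0231). Since the library left out is the one with the low values, the rise in these estimates follows from the omission. Without CGG-Cit 2, the library with the highest values, 0 of the 10 were called. Over all 15965 genes, 149 were called higher and 249 lower in that fit. The log2 fold change of Adipoq was then 1.01 (adjusted p = 0.503).

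Within the CGG libraries the genes kept a clear order of FPKM, which compares levels between genes per length. Cfd was highest, followed by Cebpa, then by Retn, Lipe and Pparg, whose ranges overlapped. Adipoq came next, above Cidec and Plin1, and Pck1 and Lep were lowest with overlapping ranges. In CGG-Cit 2 Adipoq, at 28.1 FPKM, stood above Pparg, at 15.6 FPKM, Lipe and Retn.

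Over the 6 libraries, log2(FPKM + 1) of Adipoq, Lep, Plin1, Cidec and Pck1 correlated pairwise at 0.922 to 0.992 (10 pairs), a description of libraries that share the CGG-Cit 1 contrast. Pparg and Cebpa correlated with each other at 0.982 and with Adipoq at 0.674 and 0.609. Retn was least like the others, at 0.5002 with Adipoq and -0.287 with Pparg. With 6 libraries in 2 groups these coefficients largely restate which libraries were high.

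**Figure D3:**
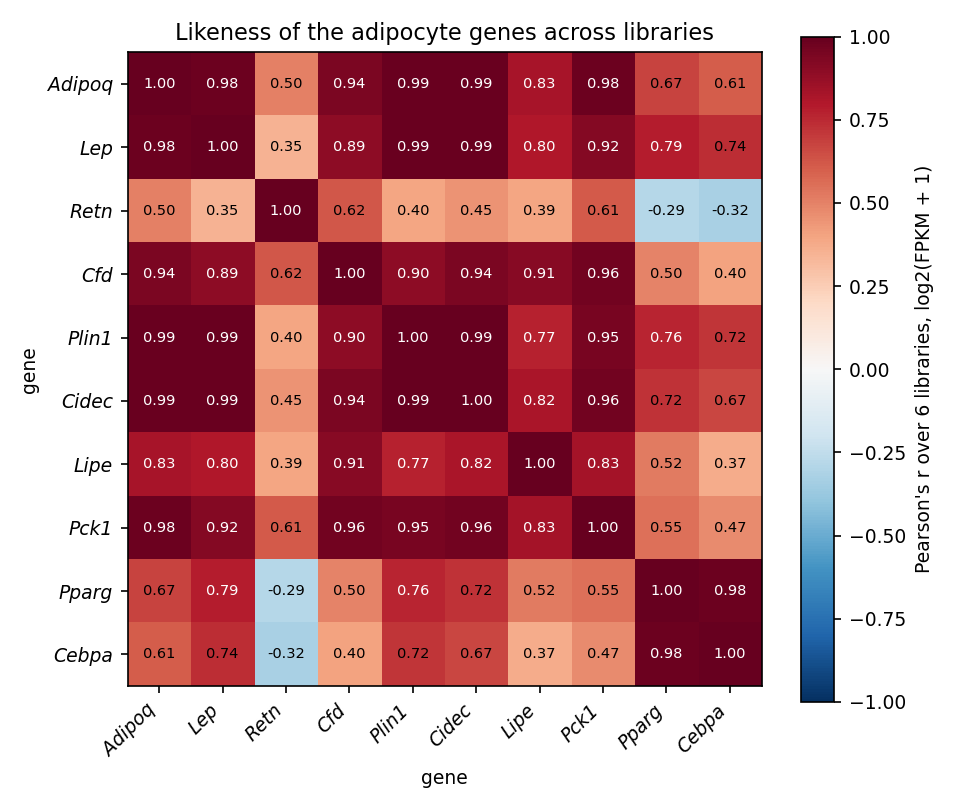
Pearson's r between the adipocyte genes over the 6 libraries, on log2(FPKM + 1), with genes on both axes and colour from -1 (blue) to 1 (red). Adipoq, Lep, Plin1, Cidec and Pck1 are alike, and Pparg and Cebpa form a pair at 0.982.

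Promoter sequences are shown for the hormone and droplet genes that were high in CGG-Cit 2 and 3 together, because PPARγ and C/EBPα are known to act on such genes. They are the 250 bases before the gene's start in RefSeq (build GRCr8), which matched 9 of the 10 genes, with 2 starts for Pparg. A C/EBP-type motif, TTGNNCAA, and a PPAR-type direct repeat, AGGNCANAGGNCA, were searched on both strands and do not overlap in these windows. Capitals mark the C/EBP-type match. The sequences are those of Lep (chr4:58626288-58626537, plus strand), Plin1 (chr1:143086149-143086398, minus strand), Cidec (chr4:148137116-148137365, minus strand) and Adipoq (chr11:91240170-91240419, minus strand).
Lep: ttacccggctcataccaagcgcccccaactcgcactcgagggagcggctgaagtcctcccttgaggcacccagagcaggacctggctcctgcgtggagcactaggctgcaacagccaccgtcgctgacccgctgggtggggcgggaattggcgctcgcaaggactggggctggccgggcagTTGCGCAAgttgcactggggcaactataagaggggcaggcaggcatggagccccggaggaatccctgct
Plin1: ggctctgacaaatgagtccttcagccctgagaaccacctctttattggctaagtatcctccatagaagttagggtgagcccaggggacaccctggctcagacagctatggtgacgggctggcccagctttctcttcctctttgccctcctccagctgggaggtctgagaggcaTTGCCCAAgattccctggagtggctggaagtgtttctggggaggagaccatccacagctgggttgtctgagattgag
Cidec: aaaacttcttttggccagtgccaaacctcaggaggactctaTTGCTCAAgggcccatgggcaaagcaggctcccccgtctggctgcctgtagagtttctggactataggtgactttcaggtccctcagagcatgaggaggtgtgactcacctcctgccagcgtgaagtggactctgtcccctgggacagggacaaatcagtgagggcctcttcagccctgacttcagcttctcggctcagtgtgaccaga
Adipoq: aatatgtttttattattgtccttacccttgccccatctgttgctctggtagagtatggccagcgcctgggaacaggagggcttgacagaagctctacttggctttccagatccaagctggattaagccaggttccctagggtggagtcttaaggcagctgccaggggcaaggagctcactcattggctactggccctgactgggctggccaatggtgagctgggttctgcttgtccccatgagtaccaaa

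The C/EBP-type motif was found in 3 of the 9 genes (10 windows), Lep, Plin1 and Cidec, and in 5.25% of all 33469 windows in the table. Whether these 3 exceed that share was not tested. The match lay 69 to 62 bases before the start of Lep, 77 to 70 before that of Plin1 and 209 to 202 before that of Cidec. The direct repeat was found in 0 of the 9 genes and in 0.368% of all windows. A match is a description of letters, and a window without one says nothing about the factor.

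The genes around the adipocyte genes in the same pathways were taken from 9 further lists. Their counts stand beside 7.75% of all tested genes called higher and 9.78% called lower. These shares belong to the fit of all 6 libraries with the filter, and the alternative fits had others. After rescaling to TPM, 2202 of all 15965 genes were called higher and 952 lower. Without the filter, 842 of 22222 genes were called higher and 1133 lower. With 1 library omitted, 122 to 1312 of 15965 genes were called higher and 190 to 1622 lower. Of 17 tested genes of triglyceride storage and lipolysis, 3 were called higher and 1 lower, with a median log2 fold change of -0.13, which turned to 0.03 after rescaling to TPM, where 5 were higher and 0 lower. Plin2, the droplet coat protein of most cell types including lipid-laden macrophages, rose from 47.8, 75.3 and 54.4 FPKM in CGG to 330.0, 162 and 112 in CGG-Cit (adjusted p = 0.0352), with its highest value in the library where Adipoq was lowest. Plin3, a further droplet coat protein, rose by 0.61 and Mgll, the lipase of the last step of fat breakdown, by 0.80 on the log2 scale. Dgat2, which makes triglyceride, fell by 0.58. Leaving out CGG 3 ended all 4 calls, and so did leaving out CGG-Cit 2 (largest adjusted p 0.112). The calls of Plin2 and Dgat2 also ended when CGG 1 or CGG 2 was omitted, and that of Plin3 when CGG 2 was. Omitting CGG-Cit 1 ended the calls of Plin3 and Dgat2. Pnpla2, the lipase of the first step, measured 0.447, 3.57 and 4.39 FPKM in CGG and 9.95, 1.36 and 12.7 in CGG-Cit, with overlapping groups (adjusted p = 0.352).

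Genes for the supply of fatty acids and glucose gave 4 higher and 3 lower of 15 tested (median 0.46). Without the filter on low values 0 were higher and 2 lower, and 0 were higher when CGG-Cit 2 or any CGG library was omitted, with a median of 0.23 without CGG-Cit 2 and 0.30 without CGG 1. Fabp4, a fatty acid carrier of adipocytes, macrophages and capillary endothelium, measured 216, 403 and 273 FPKM in CGG and 543, 1234 and 839 in CGG-Cit and rose by 1.52 ± 0.344 on the log2 scale (SE; adjusted p = 0.0311). Lpl, the lipase that frees fatty acids from lipoproteins, rose from 92.0, 90.6 and 76.4 to 145, 390.1 and 296 FPKM (log2 fold change 1.56, adjusted p = 0.0287). Both were highest in CGG-Cit 2 and lowest among the CGG-Cit libraries in CGG-Cit 1, as Adipoq was, but CGG-Cit 1 still lay above every CGG library. Fabp5 rose by 1.48. Slc2a4, the insulin-responsive glucose transporter of fat and muscle, fell by 2.29, and Me1, a source of NADPH for fatty acid synthesis, fell by 0.87. The remaining calls were Slc27a1, a fatty acid transporter, which rose by 0.56, and Acsl1, which activates fatty acids and fell by 0.68, both named to complete the count. Slc2a4 and Me1 passed in all 17 alternative fits. The calls of Fabp4 and Lpl ended when any library other than CGG-Cit 1 was omitted (largest adjusted p 0.103), and that of Fabp5 when any other than CGG-Cit 3 was. The call of Acsl1 held only when CGG 1 or CGG-Cit 3 was the library omitted, and that of Slc27a1 ended with each of the 6 omissions (largest adjusted p 0.142).

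Scd, a fatty acid desaturase, and Thrsp, a regulator of fatty acid synthesis in fat, were chosen after their values were seen. Scd measured 7.41, 3.65 and 3.64 FPKM in CGG and 3.57, 32.5 and 30.8 in CGG-Cit (adjusted p = 0.195). Thrsp measured 4.99, 2.08 and 2.51 FPKM in CGG and 1.59, 23.6 and 17.3 in CGG-Cit (adjusted p = 0.275). Both were low in CGG-Cit 1 and high in CGG-Cit 2 and 3, as Adipoq, Lep, Plin1, Cidec and Pck1 were. Plin4 and Agpat2, also chosen after their values were seen, were lower in every CGG-Cit library than in any CGG library. Plin4 measured 3.17, 4.68 and 6.15 FPKM in CGG and 0.625, 2.99 and 1.89 in CGG-Cit (adjusted p = 0.0873). Agpat2 measured 19.0, 25.9 and 29.4 and then 15.4, 17.6 and 18.9 (adjusted p = 0.0992). In the storage list 5 tested genes lay wholly higher and 5 wholly lower, where 19.6% and 22.1% of all genes did.

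Of 9 tested genes in the list of other adipocyte-enriched genes, 1 was called higher and 1 lower (median 1.11). Over all 13 genes fitted without the filter the median was 0.22, with the same counts, and after rescaling to TPM 3 were higher. Rbp4, a retinol carrier secreted by liver and fat, rose from 8.79, 8.70 and 4.96 to 23.8, 30.3 and 28.8 FPKM (adjusted p = 0.00791). Orm1, an acute phase protein, fell by 1.76. Both passed in all 17 alternative fits. Lpcat3, a phospholipid enzyme, stood at -0.34 (adjusted p = 0.0616). Adig, Adrb3, Acvr1c and Mrap lay under the filter, and Adig gave 1 fragment each in CGG-Cit 2 and 3 and none in the other 4 libraries.

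Regulators that favour fat cell formation gave 2 higher and 0 lower of 15 tested (median 0.30), with 1 higher without the filter and 4 after rescaling to TPM. Rxra, the partner receptor of PPARγ, rose by 0.61 (adjusted p = 0.0176) and Nr1h3, the oxysterol receptor LXRα of macrophages, liver and fat, by 1.05 (adjusted p = 0.0314). The call of Rxra ended when CGG 2, CGG 3 or CGG-Cit 2 was omitted (largest adjusted p 0.0688), and that of Nr1h3 when any library other than CGG-Cit 3 was (largest 0.107). Cebpb, an early factor ahead of Pparg, measured 55.9, 67.9 and 70.3 FPKM in CGG and 143, 82.2 and 68.3 in CGG-Cit (adjusted p = 0.212). Srebf1 stood at 0.55 (adjusted p = 0.0878) and Zfp467 at 0.38 (adjusted p = 0.0795). Of 10 tested inhibitors of fat cell formation, Ddit3, a stress factor that blocks C/EBP proteins, rose by 1.21 and Gata2, also a factor of blood cell precursors, fell by 0.80 (median -0.07, and 0.04 after rescaling to TPM). The call of Ddit3 ended when CGG 3 or CGG-Cit 2 was omitted (largest adjusted p 0.0628), and that of Gata2 when any library other than CGG-Cit 3 was (largest 0.101). Zfp521 stood at 0.57 (adjusted p = 0.0766) and Dlk1 at -0.47 (adjusted p = 0.215).

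Brown and beige fat genes gave 2 higher and 0 lower of 5 tested (median 1.15). Without the filter 8 were tested, 2 were higher and 1 lower, and the median was -0.01. The lower gene was Ppargc1a, the coactivator PGC-1α of mitochondrial genes, named to complete the count, which measured 0.321, 0.608 and 0.696 FPKM in CGG and 0.0956, 0.118 and 0.0653 in CGG-Cit and fell by 0.49 in the fit without the filter (adjusted p = 0.0472). It lay under the filter in the fit used elsewhere. Ucp1, the uncoupling protein that defines brown fat, was at 0 fragments in all 6 libraries, which allows up to 0.149 to 0.164 FPKM. The called genes were Tmem26, at 1.57, and Zic1, at 1.24, a neural and cranial patterning factor as well. The call of Tmem26 ended when CGG-Cit 2 was omitted (adjusted p = 0.0517), and that of Zic1 held only when the omitted library was CGG 1 or CGG-Cit 3 (largest adjusted p 0.0956). Cidea, a droplet protein counted in 3 of the lists, measured 1.95, 1.76 and 1.203 FPKM in CGG and 2.52, 8.07 and 5.13 in CGG-Cit (adjusted p = 0.0622). Tbx1 stood at -0.59 (adjusted p = 0.232).

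The list named receptors of adipocyte hormones also held receptors of other ligands, among them Insr and Adra2a. Of its 10 genes 2 were called higher and 0 lower (median 0.01), with 0 higher without the filter and 4 after rescaling to TPM. The adiponectin receptor genes did not pass, with Adipor1 at 125 to 143 FPKM in CGG and 105 to 118 in CGG-Cit (log2 fold change -0.24, adjusted p = 0.124) and Adipor2 at -0.08 (adjusted p = 0.633). Cdh13, which binds adiponectin on vessels, stood at 0.74 (adjusted p = 0.120), and Lepr, the leptin receptor, at 1.41, 1.42 and 1.78 against 0.675, 1.07 and 1.21 FPKM (adjusted p = 0.189). C3ar1, the receptor of the complement fragment whose release adipsin starts, rose by 1.67, and Tlr4, a receptor of innate immunity, rose by 0.83. Both calls ended when CGG-Cit 2 or any CGG library was omitted (largest adjusted p 0.125). Adra2a stood at 1.11 (adjusted p = 0.0533).

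Of 12 genes of marrow stromal cells that can form fat, 0 were called higher and 2 lower (median -0.24), with 1 lower without the filter. Hp, haptoglobin, which neutrophils also store, fell by 1.995, and Cxcl12, the ligand that holds blood cells in the marrow, fell by 0.77. The call of Hp ended when CGG 3 was omitted (adjusted p = 0.0578), and that of Cxcl12 when any library other than CGG-Cit 3 was (largest 0.102). Grem1 stood at -0.64 and Chrdl1 at 0.88 without passing (adjusted p = 0.0533 and 0.0559). Of 11 genes of progenitors in fat and connective tissue, 4 were called higher and 2 lower (median 0.73), with 3 and 1 without the filter. F3 rose by 1.40, Sema3c by 1.26, Pi16 by 1.27 and Pdgfra by 0.73, in each of which all CGG-Cit libraries lay above all CGG libraries. Anxa3 fell by 0.70, and Ly6al, matched to Ly6a through a synonym, fell by 1.34. F3 and Pdgfra passed in all 17 alternative fits. The calls of Sema3c and Anxa3 ended when CGG 3 was omitted (largest adjusted p 0.0551), that of Pi16 when any library other than CGG 1 was, and that of Ly6al when any other than CGG-Cit 3 was (largest 0.102).

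**Figure D4:**
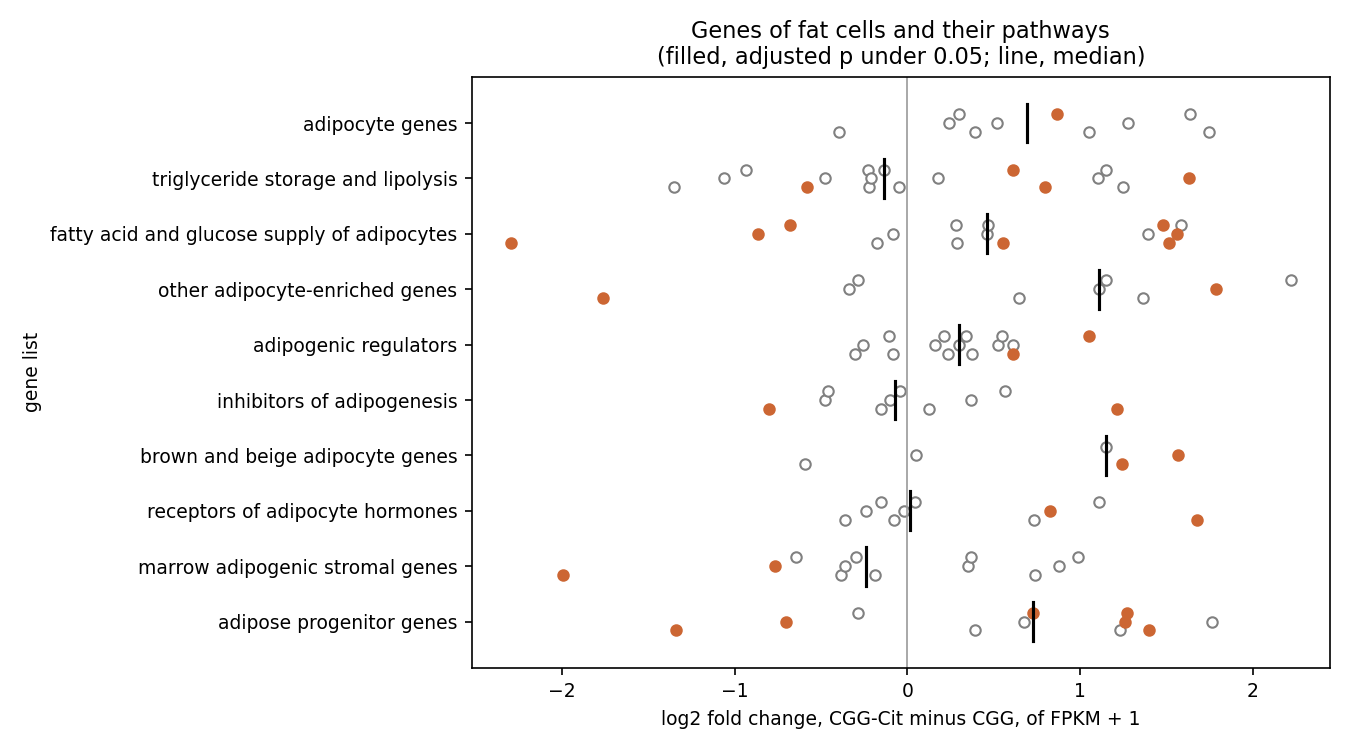
Log2 fold change of FPKM + 1, CGG-Cit minus CGG (horizontal axis), of each tested gene in the adipocyte list and the 9 related lists. Filled points passed at an adjusted p under 0.05, open points did not, and the black line is the list's median, which is 0.69 for the adipocyte genes and -0.13 for triglyceride storage and lipolysis.

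The genes most like Adipoq over the 6 libraries, among 12947 other named protein-coding genes averaging 1 FPKM or more, were Agt (r = 0.996), Calml3 (0.986), Fosl2 (0.985), LOC103690326 (0.985) and Ddx50 (0.983). Agt, the angiotensin precursor gene of liver and fat, measured 2.79, 3.61 and 2.72 FPKM in CGG and 1.997, 14.5 and 9.96 in CGG-Cit. Calml3, a calmodulin-like protein, measured 1.14, 1.02 and 0.955 FPKM in CGG and 0.381, 9.75 and 4.90 in CGG-Cit. Fosl2, a subunit of AP-1, ran from 23.9 to 34.0 FPKM over the libraries, LOC103690326 from 3.50 to 7.53 and Ddx50 from 16.1 to 18.4.

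Several other cell types in the tissue moved with the groups, where 7.75% of all genes were called higher and 9.78% lower. Of 12 macrophage markers 10 rose, and their summed level was 7235 to 8230 FPKM in CGG and 10129, 11932 and 8552 in CGG-Cit 1, 2 and 3, with none at 0. A sum weighs the strongest genes most, and the median log2 fold change of the 12 markers was 1.07. CGG-Cit 1 had a macrophage sum above every CGG library and the lowest Adipoq. Macrophages also express Pparg, Cebpa, Fabp4, Lpl and Plin2, and the part of these cells in the rise of Pparg was not tested. All 11 tested neutrophil markers fell, from a sum of 15071 to 17041 FPKM to 3530, 2404 and 6279, and all 8 skeletal muscle markers fell, from 6483 to 7474 FPKM to 85.5, 38.6 and 322. Muscle fibres also express Slc2a4, Pnpla2 and Plin5, and neutrophil precursors Cebpa, and the part of these cells was not tested either. Endothelial markers gave 0 calls of 6 tested with limma (1 at an unadjusted p under 0.05, 0 calls with voom, 1 after rescaling to TPM and 1 without CGG-Cit 3), with sums of 109.5 to 184 FPKM in CGG and 145, 184 and 199 in CGG-Cit. Of 8 osteoblast markers, which are defining genes of bone-forming tissue, all 8 were detected in every library and 5 fell. Without 1 library at a time the macrophage count ranged from 2 (without CGG 3) to 9 (without CGG 1). The neutrophil count ranged from 0 (without CGG 3) to 11 (without CGG-Cit 3), and the muscle count from 6 to 8. The osteoblast count ranged from 1 (when CGG-Cit 2 or any CGG library was omitted) to 5. Most of these fits called fewer genes of any kind, so 7.75% and 9.78% do not apply to them. Of all 15965 genes, the fit lacking CGG 3 called 122 higher and 190 lower, against 1237 and 1561 with all 6 libraries. The fit lacking CGG 1 called 536 and 666, and the fit lacking CGG-Cit 3 called 1312 and 1622. After rescaling to TPM 3 osteoblast markers fell. Without the filter 2 did. Skin and sebaceous markers summed to 1.64 to 2.84 FPKM, and of the 2 tested 1 was lower. In bulk tissue, fewer cells of a type and less RNA per cell cannot be told apart.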

How the data were processed

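The deposited table gives FPKM per gene and library, made by the authors. Tools listed in the submitters' processing notes, without a role, are featureCounts 1.5.0-p3, HISAT2 2.0.5 and DESeq2 1.20.0, with the build mRatBN7.2. The strand setting is not given in the sources used here. Coordinates are printed as the table lists them and without a build, since its genes on chromosome 1 reach base 282724300, past the end of that chromosome in mRatBN7.2. FPKM times gene length gave whole multiples of 1 fragment in 100% of values above 0 (within 0.01 fragments), and recovered totals were 14744207 to 16224920 fragments per library, 1 fragment in 1 kb being worth 0.0596 to 0.0657 FPKM. Limits given for 0 fragments (3 fragments) cover counting error only.

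Group differences on log2(FPKM + 1) were fitted by limma 3.58.1 under R 4.3.3, with a variance trend over mean expression in eBayes, without a block. This scale understates changes of low genes. The fit was also run on simulated data, in which the spread of the most variable genes was cut, so that run does not cover such genes. Python 3.11.15, pandas 2.3.3 and matplotlib 3.10.9 made tables and figures. Alternatives were pseudocounts of 0.1 and 0.5, no filter, a mean of at least 2 FPKM, TPM, median-of-ratios and quantile scaling, sample quality weights, robust variance, a block on replicate number, voom on the recovered fragments and each library left out in turn. Median-of-ratios scaling gave nearly the same fit again, with 1250 genes higher and 1552 lower against 1237 and 1561. The members and lists were chosen with earlier results of these data known. Named genes were all 10 members, up to 4 of each list with the smallest p, 13 genes by name and the 5 most like Adipoq, and others are marked or complete a count. Of 185 listed symbols 176 matched the table, and the rest were not analysed here. Marker genes of other cell types are given as sums and counts.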

Additional observations from a re-analysis of the deposited data

How the results depend on the processing

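Of the 10 adipocyte genes, 2 were called higher after rescaling to TPM (Pparg and Cebpa), 2 with sample quality weights (Pparg and Plin1, whose log2 fold change was then 2.11, adjusted p = 0.0458), and 0 to 5 when 1 library was left out, 5 without CGG-Cit 1 and 0 without CGG-Cit 2. The quality weight was lowest for CGG-Cit 1 (0.624) and highest for CGG-Cit 2 (1.82), so the larger Plin1 estimate follows from the weighting. In that fit 1653 of all 15965 genes were called higher. In every alternative 0 of the 10 were called lower. The log2 fold change of Retn turned to 0.11 (adjusted p = 0.805) without CGG-Cit 1 and was -0.77 without CGG-Cit 2, and the other 9 genes kept their sign in every alternative that tested them. Lep and Pck1 were not tested at a mean of at least 2 FPKM. Over all genes, leaving out 1 library gave 122 to 1312 calls higher and 190 to 1622 lower, TPM gave 2202 and 952, and the replicate block gave 612 higher and 1055 lower, with 1 adipocyte gene, Pparg, still called. Same-numbered libraries of the 2 groups did not deviate together (r = -0.0956, 0.00165 and -0.0779), so the numbers are not taken to pair them. Of the 29 called genes in the 9 related lists, 6 passed in all alternatives, 16 remained called without the filter on low values, 20 with the replicate block and 26 after rescaling to TPM. The cause of these changes was not tested. With 3 libraries a group and a CGG-Cit SD of 13.6 FPKM about a mean of 15.7, the difference of Adipoq was not resolved. Lep and Pck1 rest on 0 to 22 fragments in CGG.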
